A study of Mus musculus with 2 samples.

Results

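Wide stretches of open chromatin that lie away from the ends of coding genes were followed in AB22, a line of malignant mesothelioma cells of the mouse. A peak was taken when it was called on chromosomes 1 to 19 with a width of at least 1500 bp, had no end of a coding gene within 2 kb, and lay at most 100 kb from the body of a coding gene. The wide peaks were thus chosen by the called start and end of each peak in its own library. By this rule 293 of the 104336 peaks called in the control line and 193 of the 92282 called in the Hmgb1 knockdown line were wide peaks, 486 in all. Joined where they overlapped, they made 371 loci, of which 110 held a wide peak of both libraries, 183 only of the control line and 78 only of the knockdown line.

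The 2 groups were AB22 cells carrying the vector pTRIPZ with a control hairpin (shCTRL) or with a hairpin against HMGB1 (shHMGB1), 1 ATAC-seq library each. Both were infected at a multiplicity of infection of 20, selected with 4 µg/mL puromycin, given 1 µM doxycycline to switch on the hairpin, and used 7 to 10 days later. The labels give no radiation dose for these libraries. Each group is a pool of selected cells of 1 line, and with 1 library per group there is no replicate spread to measure a difference by, so no p-value is given. The level of HMGB1 protein or RNA was not measured in these files.

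ATAC-seq uses the transposase Tn5, which inserts adapters where DNA is free of nucleosomes, so a peak marks accessible DNA. Most accessible sites are short, the length of linker and displaced nucleosomes at 1 promoter or enhancer, and a wide peak forms where several sites lie side by side or where a whole stretch is cut above the call limit. HMGB1, which is plentiful in the nucleus, bends DNA and binds near nucleosomes without strong sequence preference.

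The height of a peak is given as pileup, the number of fragments stacked at its highest summit, recovered from the deposited fold. The libraries differed in scale: the expected pileup behind the deposited folds was 2.79 in shCTRL and 1.69 in shHMGB1, and the lowest pileup in the lists was 10 and 7. A call therefore needed fewer fragments in shHMGB1. Of 12 mesothelial marker genes, 5 had a peak within 1 kb of an end in shCTRL (Msln, Wt1, Krt19, Calb2 and Pdpn). In shHMGB1 3 did (Msln, Pdpn and Lrrn4). For other cell types the numbers were 3 and 2 of 8 leukocyte, 3 and 1 of 6 epithelial, 2 and 0 of 5 endothelial and 2 and 1 of 5 neuronal markers. The share over all coding genes is not given, so these counts do not tell the cell type. The part of other cells in the results was not tested.

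Some wide peaks held start sites of transcripts that begin inside a longer gene, away from its outer ends. Sequences of 8 such starts are shown because their wide peaks were the highest among coding starts found under a wide peak in both libraries. Each line gives the 200 bases before the annotated start (RefSeq, GRCm38.p6, 5′ to 3′ on the strand of the gene) with every CpG in capitals, the dinucleotide that is dense in CpG island promoters.
Rgmb (chr17:15826567-15826766, minus strand): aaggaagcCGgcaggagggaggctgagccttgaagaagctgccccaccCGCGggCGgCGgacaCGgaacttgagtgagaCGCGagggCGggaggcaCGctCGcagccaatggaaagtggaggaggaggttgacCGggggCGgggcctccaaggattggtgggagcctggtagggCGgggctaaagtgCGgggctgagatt
Kdm4c (chr4:74251679-74251878, plus strand): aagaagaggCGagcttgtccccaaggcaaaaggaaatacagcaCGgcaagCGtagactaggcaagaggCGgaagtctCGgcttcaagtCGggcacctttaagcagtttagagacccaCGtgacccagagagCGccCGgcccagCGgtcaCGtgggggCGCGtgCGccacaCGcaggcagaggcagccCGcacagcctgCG
Stag1 (chr9:100643248-100643447, plus strand): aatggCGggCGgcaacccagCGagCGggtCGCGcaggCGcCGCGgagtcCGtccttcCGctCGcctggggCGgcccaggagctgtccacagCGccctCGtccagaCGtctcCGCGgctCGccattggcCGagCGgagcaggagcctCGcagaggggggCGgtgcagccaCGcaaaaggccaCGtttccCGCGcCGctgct
Gata3 (chr2:9878601-9878800, minus strand): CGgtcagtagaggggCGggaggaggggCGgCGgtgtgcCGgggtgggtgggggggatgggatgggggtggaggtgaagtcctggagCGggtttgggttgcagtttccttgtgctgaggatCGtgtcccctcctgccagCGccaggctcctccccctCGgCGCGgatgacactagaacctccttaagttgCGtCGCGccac
Slc39a10 (chr1:46853619-46853818, minus strand): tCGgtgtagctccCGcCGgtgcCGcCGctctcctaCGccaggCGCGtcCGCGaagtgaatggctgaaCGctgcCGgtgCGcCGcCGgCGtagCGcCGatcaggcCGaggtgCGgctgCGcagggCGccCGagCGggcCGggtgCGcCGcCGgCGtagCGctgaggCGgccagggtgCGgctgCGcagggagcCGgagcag
Ptprs (chr17:56462222-56462421, minus strand): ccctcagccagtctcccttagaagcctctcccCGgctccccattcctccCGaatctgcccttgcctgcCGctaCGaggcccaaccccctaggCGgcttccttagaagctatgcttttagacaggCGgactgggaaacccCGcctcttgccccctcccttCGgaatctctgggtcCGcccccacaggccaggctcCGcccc
Prdm10 (chr9:31280349-31280548, plus strand): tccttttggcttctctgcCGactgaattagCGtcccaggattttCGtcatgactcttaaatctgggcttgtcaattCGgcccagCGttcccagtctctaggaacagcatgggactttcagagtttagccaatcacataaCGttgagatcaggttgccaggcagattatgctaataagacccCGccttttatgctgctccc
Pfkfb3 (chr2:11502091-11502290, minus strand): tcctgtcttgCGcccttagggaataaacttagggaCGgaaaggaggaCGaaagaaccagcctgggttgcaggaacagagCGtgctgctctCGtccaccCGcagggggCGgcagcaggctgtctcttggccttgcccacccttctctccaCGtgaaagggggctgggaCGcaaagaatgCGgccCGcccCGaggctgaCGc
In these 200 bases Slc39a10 held 34 CpG and Stag1 28, Kdm4c 17, Rgmb 15, Gata3 14, Pfkfb3 13, Ptprs 10 and Prdm10 7. The range from 7 to 34 shows that the group was not uniform in this feature.

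Wide peaks made up 0.285% of the peaks on chromosomes 1 to 19 in shCTRL and 0.213% in shHMGB1. Their width was a median 1870 bp in shCTRL (lowest 1503, highest 15066) and 1728 bp in shHMGB1 (lowest 1502, highest 8724). A wide peak was a row of summits: a median of 10 in shCTRL and 9 in shHMGB1, with neighbouring summits a median 155 bp apart in both libraries. In other peaks away from gene ends with several summits the spacing was 137 and 138 bp. The highest summit had a median pileup of 48 in shCTRL (lowest 17, highest 1268) and 66 in shHMGB1 (lowest 14, highest 746). The rule was applied to the called width, so these widths are a description. The 5 peaks just inside the limit were 1503 to 1521 bp wide in shCTRL and 1502 to 1505 bp in shHMGB1, and the 5 just outside were 1494 to 1498 and 1493 to 1498 bp.

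All wide peaks of either library overlapped some peak of the other: 293 of 293 in shCTRL (exact Clopper-Pearson 95% interval from 98.7%) and 193 of 193 in shHMGB1 (from 98.1%). Of all peaks away from gene ends, 57.4% in shCTRL and 65.5% in shHMGB1 did so, and of all peaks at any place 59.7% and 69.0%; a wider interval has more room for an overlap. When 1 peak of the other library had to cover 50 percent of the interval, the share was 58.7% in shCTRL and 91.2% in shHMGB1, against 49.5% and 54.7% of all peaks away from gene ends. Being wide was shared less: 110 of the 293 shCTRL wide peaks (37.5%, 32.0 to 43.4) overlapped a wide peak of shHMGB1, and 115 of the 193 shHMGB1 wide peaks (59.6%, 52.3 to 66.6) one of shCTRL. The shHMGB1 peak with the largest overlap of a shCTRL wide peak was a median 1273 bp wide, and the reverse 1632 bp.

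The wide peaks fell into kinds that differed in their surroundings. For each, the share of the 50 kb on either side that lay under peaks of the same library was taken as local cover. A stretch was called crowded from 40% and sparse below 10%, limits set after the values were seen. In shCTRL 98 of 293 wide peaks were crowded (33.4%, 28.1 to 39.2; 2.4% of all shCTRL peaks away from gene ends), 145 were sparse and 50 lay between. In shHMGB1 15 of 193 were crowded (7.77%, 4.42 to 12.5; 0.757% of all), 159 were sparse and 19 lay between. The numbers of sparse wide peaks, 145 and 159, were closer to each other than those of crowded ones, 98 and 15.

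**Figure D1:**
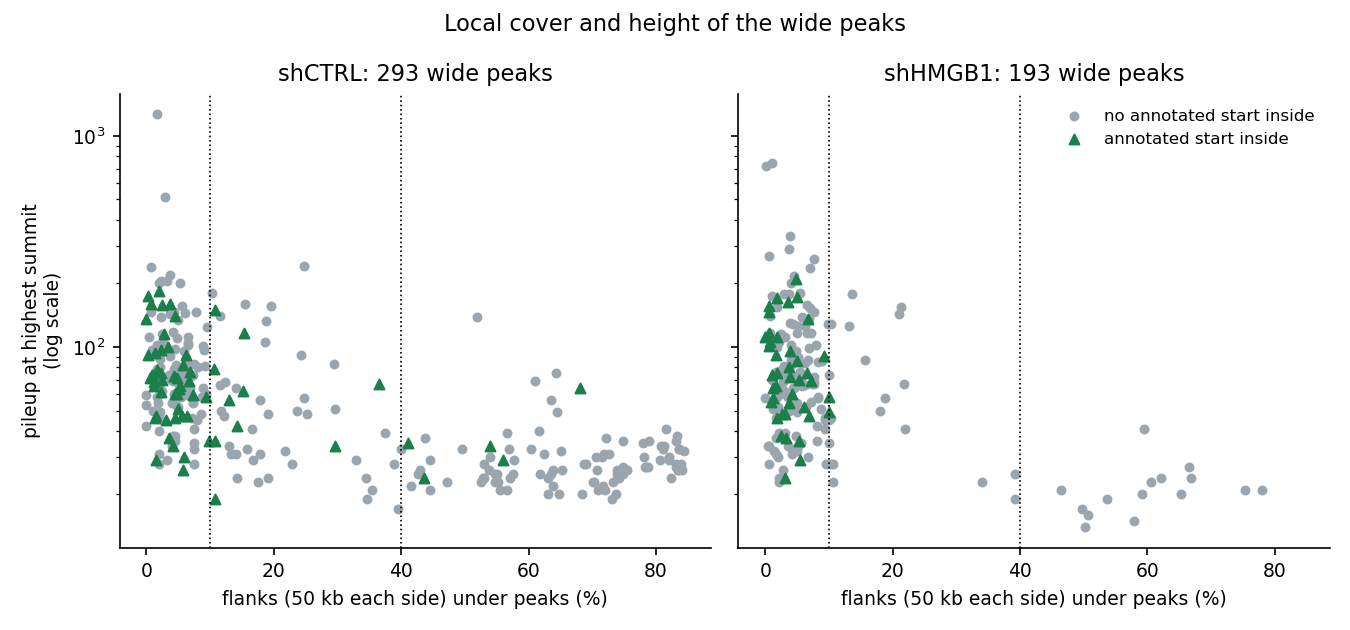
Each point is a wide peak; the x axis is the percent of its 50 kb flanks under peaks of the same library, the y axis the pileup at its highest summit on a log scale, and triangles mark wide peaks that hold an annotated start. Dotted lines stand at 10% and 40%; to the right of 40% lie 98 wide peaks of shCTRL and 15 of shHMGB1, at a median pileup of 27 and 21, with 5 triangles in shCTRL and 0 in shHMGB1.

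Crowded wide peaks were long, low and flat. In shCTRL they had a median width of 2149 bp and a median highest pileup of 27, against 1718 bp and 71 for sparse ones, and in shHMGB1 2047 bp and 21, against 1702 bp and 72. The highest summit exceeded the median summit of the same peak 1.47 times in crowded and 2.19 times in sparse wide peaks of shCTRL, and 1.43 and 2.68 times in shHMGB1. A highest summit of at least 3 times the median was found in 3 of 98 crowded wide peaks of shCTRL, and in 57 of the other 195. The highest crowded one, inside Kcnab2, reached 138. In shHMGB1 the numbers were 0 of 15 crowded ones and 67 of the other 178. The crowded class was otherwise of fairly even height along its length. A highest summit of at least 3 times the median was more frequent outside it, but most wide peaks there had none.

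Crowded wide peaks of shCTRL were found on 3 chromosomes: chromosome 4 held 85 of them, chromosome 1 held 10 and chromosome 17 held 3. In shHMGB1 they lay on chromosome 1 (11) and chromosome 4 (4). Chromosome 4 held 116 of the 293 wide peaks of shCTRL (39.6%; 13.3% of all its peaks away from gene ends) and 21 of the 193 of shHMGB1 (10.9%; 10.6% of all). Without the crowded ones, chromosome 4 held 31 in shCTRL and 17 in shHMGB1. With all wide peaks counted, the numbers for chromosome 1 were 29 and 27, for chromosome 2 they were 23 and 24, for chromosome 15 they were 18 and 15, and for chromosome 19 they were 11 and 11. They were less alike on chromosome 3 (4 and 12), chromosome 18 (2 and 8) and chromosome 7 (14 and 7). Chromosome 4 was the chromosome where the libraries differed most in the number of wide peaks.

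**Figure D2:**
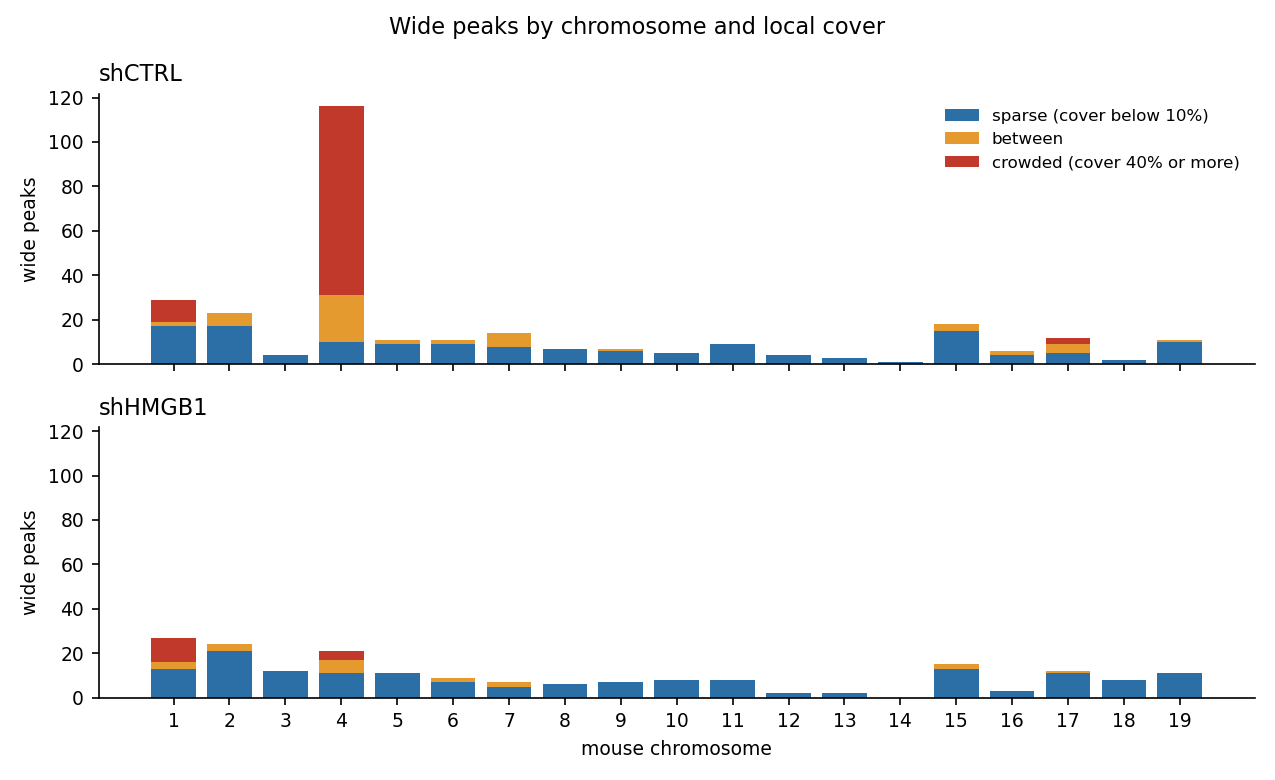
Bars give the number of wide peaks on each mouse chromosome in shCTRL (top) and shHMGB1 (bottom), coloured by local cover. The bar of chromosome 4 reaches 116 in shCTRL, 85 of them crowded, and 21 in shHMGB1, 4 of them crowded.

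The largest group of wide peaks spanned chr4:130784571-131051607 (mm10), around Sdc3, a heparan sulfate proteoglycan of the cell surface, Laptm5, a lysosomal membrane protein of blood cells, and Matn1, a matrix protein of cartilage. The stretch was chosen and bounded by wide peaks of shCTRL. Here shCTRL had 40 wide peaks and shHMGB1 4. Peaks covered 80.8% of the stretch in shCTRL, as 236 intervals of median 448 bp, and 55.0% in shHMGB1, as 406 intervals of median 248 bp. In shHMGB1 the same stretch was therefore also rich in peaks, but broken into more and shorter ones. The median summit had a pileup of 19 in shCTRL and 11 in shHMGB1, which is 6.80 and 6.53 times the expected pileup of each library. The highest of the 1257 summits of shCTRL reached 62, and of the 730 of shHMGB1 54. These medians are over called summits, many of them near the call limit. Where the highest summit of a peak in this stretch had a match within 150 bp, the median log2 ratio of shHMGB1 over shCTRL was −0.61 over 158 matches, relative to all matched summits. The stretch thus held fewer called summits in shHMGB1. Those that matched the highest summit of a shCTRL peak were lower, relative to all matched summits. Both the stretch and the anchor were taken from shCTRL, which favours that library. The part of the call limit in this was not tested.

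**Figure D3:**
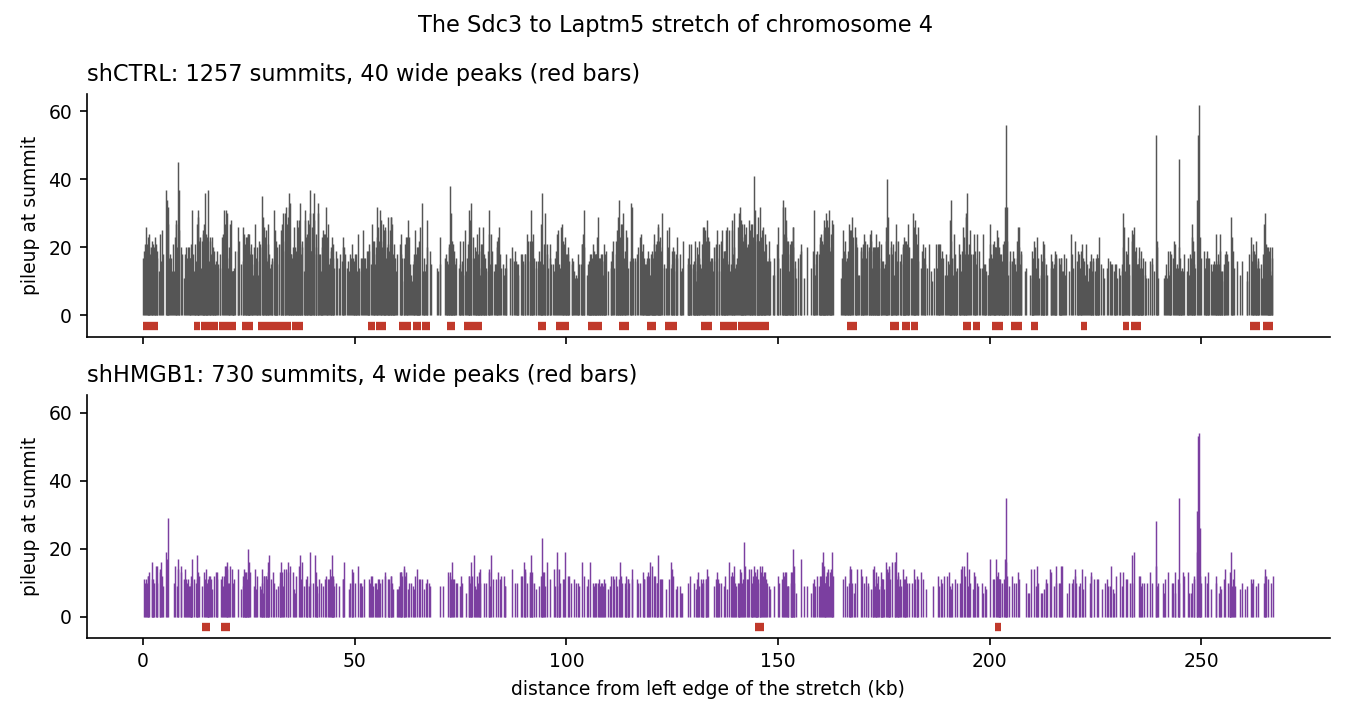
Vertical lines give the pileup of each called summit by its distance in kb from the left edge of the 267 kb stretch, in shCTRL (top) and shHMGB1 (bottom); red bars below mark wide peaks, 40 and 4. Summits run along the whole stretch in both libraries, at a median of 19 and 11.

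Other crowded groups on chromosome 4 showed the same order. Over Kcnab2, a potassium channel subunit, and Nphp4, a gene of the cilium (chr4:152393126-152573627), shCTRL had 17 wide peaks and shHMGB1 1, and cover was 73.2% and 33.6%. At Col16a1, a collagen, and Adgrb2, an adhesion receptor (chr4:129987588-130087690), the numbers were 11 and 0, with cover of 65.0% and 28.2%. A group over Padi1, Padi2 and Padi4, which turn arginine into citrulline in proteins, and Arhgef10l (chr4:140661589-140884331) had 9 and 0, with cover of 57.4% and 26.0%. At Acap3, C1qtnf12 and Ttll10 (chr4:155900839-156064842) there were 8 and 0, with cover of 50.6% and 22.4%. In all 4 groups peaks covered less of the stretch in shHMGB1 than in shCTRL. Median log2 ratios of matched summits, taken as in the Sdc3 stretch, were −0.52, −0.48, −0.52 and −0.57 in the order given. These groups were chosen and bounded by wide peaks of shCTRL, which favours that library in both the number and the cover. A group of 3 wide peaks of shHMGB1 on chromosome 4 (chr4:3079351-3091188, none of them crowded) held 2 of shCTRL. Its cover was 76.8% in shCTRL and 72.9% in shHMGB1. The same order was found off chromosome 4, in groups also bounded by wide peaks of shCTRL. A crowded group at Grm4 (chr17:27364928-27387246) had 3 and 0, with cover of 65.3% and 31.1%. Groups that were not crowded had 3 and 2 at Plec on chromosome 15 (90.3% and 61.2%) and 3 and 1 near Scaf8 on chromosome 17 (91.5% and 79.8%).

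On chromosome 1 the counts and the cover of the libraries were closer. At Hjurp, the chaperone of the centromeric histone CENP-A, Mroh2a and Trpm8, a cold-sensing channel (chr1:88222994-88310851), shCTRL had 8 wide peaks and shHMGB1 11, and peaks covered 89.8% and 83.4%. The widest peak of each library lay here, inside Mroh2a. It measured 15066 bp with 92 summits and a highest pileup of 49 in shCTRL (chr1:88236042-88251107), and 8724 bp with 47 summits and a highest pileup of 24 in shHMGB1 (chr1:88242386-88251109). Both ended within a few bases of each other on the right. At Cd244a, a receptor of natural killer cells, and Itln1, a lectin (chr1:171540019-171570147), there were 4 and 3 wide peaks, with cover of 74.2% and 71.5%. Matched summits were not closer in height. Their median log2 ratio, taken as in the Sdc3 stretch, was −0.62 over 30 matches at Hjurp and −0.81 over 19 at Cd244a. Of the 15 crowded wide peaks of shHMGB1, most of them on this chromosome, 13 overlapped a wide peak of shCTRL. Of the 98 crowded ones of shCTRL, 11 overlapped a wide peak of shHMGB1.

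A crowded wide peak of shCTRL held a group of microRNA genes. The peak chr4:156053034-156056532, at a highest pileup of 28 in shCTRL, covered the hairpins of Mir200a, Mir200b and Mir429, which keep epithelial cells from changing to a mesenchymal state by repressing Zeb1 and Zeb2. The shHMGB1 peak with the largest overlap had 1103 bp and a pileup of 13. The other wide peak over a microRNA was chr11:75172264-75173851 of shHMGB1, over Mir212 and Mir132, known from neurons, with a pileup of 26, local cover of 2.84% and a shCTRL peak of 1757 bp and pileup 29. That shCTRL peak was not counted because it came within 2 kb of an end of Hic1. Mature 3p sequences from RefSeq (GRCm38.p6) are shown with the seed, bases 2 to 8, in capitals, because the members of each group share or nearly share it.
mmu-miR-200b-3p: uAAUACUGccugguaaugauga
mmu-miR-429-3p: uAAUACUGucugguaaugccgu
mmu-miR-200a-3p: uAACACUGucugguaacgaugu
mmu-miR-212-3p: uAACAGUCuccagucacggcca
mmu-miR-132-3p: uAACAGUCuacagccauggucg
The seed of miR-200b-3p was identical to that of miR-429-3p, and the seed of miR-212-3p to that of miR-132-3p. Both peaks were low beside the median wide peak of their library.

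Nucleosome-free regions, deposited for each library as a separate list from the same reads, were more frequent in sparse than in crowded wide peaks. At least 1 lay in 139 of 293 wide peaks of shCTRL (47.4%, 41.6 to 53.3) and in 142 of 193 of shHMGB1 (73.6%, 66.8 to 79.6), against 9.08% and 9.61% of all peaks away from gene ends. Other peaks of the same height held one in 34.1% and 40.9%. In sparse wide peaks the share was 74.5% in shCTRL (108 of 145) and 81.8% in shHMGB1 (130 of 159), against 44.3% and 44.0% at the same height. In crowded ones it was 7.14% (7 of 98) and 1 of 15. Crowded wide peaks were lower than sparse ones, and no share at the same height is given for them. The part of height in their low share was not tested. Outside crowded stretches the share was 67.7% in shCTRL and 79.2% in shHMGB1. A wide peak has more room for such a region; within 150 bp of the highest summit alone, the share in sparse wide peaks was 47.6% and 56.0%, against 38.5% and 38.8% at the same height.

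An annotated transcript start lay inside 61 of the 293 wide peaks of shCTRL (20.8%, 16.3 to 25.9; 1.82% of all peaks away from gene ends) and 41 of the 193 of shHMGB1 (21.2%, 15.7 to 27.7; 2.0% of all). Of these, 47 and 33 held the start of a coding gene. Starts within 250 bp of the highest summit, which leaves out the room given by the width, were found in 13.3% and 14.5%, against 5.86% and 6.05% of other peaks of the same height. Wide peaks with a start were mostly sparse: 46 of 61 in shCTRL and 40 of 41 in shHMGB1.

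The starts under wide peaks were rich in CpG. Over 250 bases before to 50 after the start, the 75 coding starts in wide peaks of either library had a median GC content of 65.7% and 25 CpG, and the 30 noncoding ones 56.3% and 10. All 105 starts in wide peaks, from 85 genes, coding and noncoding together, had 64.3% and 22. Other starts away from gene ends were also taken with both classes together. They were not matched for the share of coding starts or for height, and the part of either was not tested. With no peak (8619 starts) the values were 48.0% and 4. In a peak that was not a wide peak by this rule (1594 starts) they were 57.7% and 14. For all 21262 coding starts they were 56.3% and 13. The GC box GGGCGG, a site of SP1-like factors, was present on either strand in 80.0% of coding starts in wide peaks and in 46.2% of all coding starts. With coding and noncoding starts together, it was present in 66.7% of starts in wide peaks and 49.4% of starts in other peaks away from gene ends. Of noncoding starts in wide peaks 33.3% held it. CCAAT was present in 38.7% of coding starts in wide peaks and 38.2% of all coding starts, the AP-1 letters TGANTCA in 6.67% and 6.99%, the TEAD letters GGAATG in 10.7% and 13.6%, and TATAAA in 4.0% and 12.6%. GGGCGG holds a CpG, so its share rises with CpG content. A match says only that the letters are present.

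The 8 starts printed above belong to genes of several roles. Rgmb, a co-receptor for bone morphogenetic proteins, had a highest pileup of 184 in shCTRL and 170 in shHMGB1. Kdm4c, a demethylase of histone H3 lysine 9, had 174 and 146, and its start lay 65 and 64 bp from the highest summit. Stag1, a subunit of cohesin, had 160 and 156, with the start 10 and 2 bp from the highest summit. The log2 ratios of shHMGB1 over shCTRL, relative to the median of all matched summits, were 0.13 (95% counting interval −0.18 to 0.44), −0.01 (−0.34 to 0.31) and 0.20 (−0.12 to 0.53).

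Gata3, a transcription factor of T cells and several epithelia, had 159 and 164, but its printed start lay 1163 and 1077 bp from the highest summit. Slc39a10, a zinc importer, had 158 and 112 (log2 ratio −0.25, −0.61 to 0.11). Ptprs, a receptor tyrosine phosphatase, had 150 and 136, Prdm10, a zinc finger factor, 135 and 112, and Pfkfb3, which makes the activator of glycolysis fructose 2,6-bisphosphate, 100 and 80. The counting intervals of all 8 ratios included 0.

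In the wide peaks at Stag1, Gata3 and Itgb3, high and low summits fell in a like order in both libraries. In Stag1 the summits of shCTRL ran 12, 34, 20, 32, 32, 131, 160, 89, 20, 19, 16, 25, 30, 19 and 20 from left to right, and those of shHMGB1 29, 16, 32, 25, 137, 156, 81, 15, 16 and 12. In Gata3 they ran 14, 16, 12, 44, 34, 35, 30, 19, 27, 46, 146 and 159 in shCTRL, and 9, 17, 41, 26, 15, 21, 35 and 164 in shHMGB1. Both peaks thus had a tall part flanked by a shelf of low summits, on both sides in Stag1 and on one side in Gata3. In Itgb3, an integrin of adhesion to vitronectin, no summit stood far above the rest: 35, 42, 60, 30, 25, 24, 46 and 18 in shCTRL, and 31, 42, 54, 43, 19, 26, 39, 49 and 15 in shHMGB1.

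**Figure D4:**
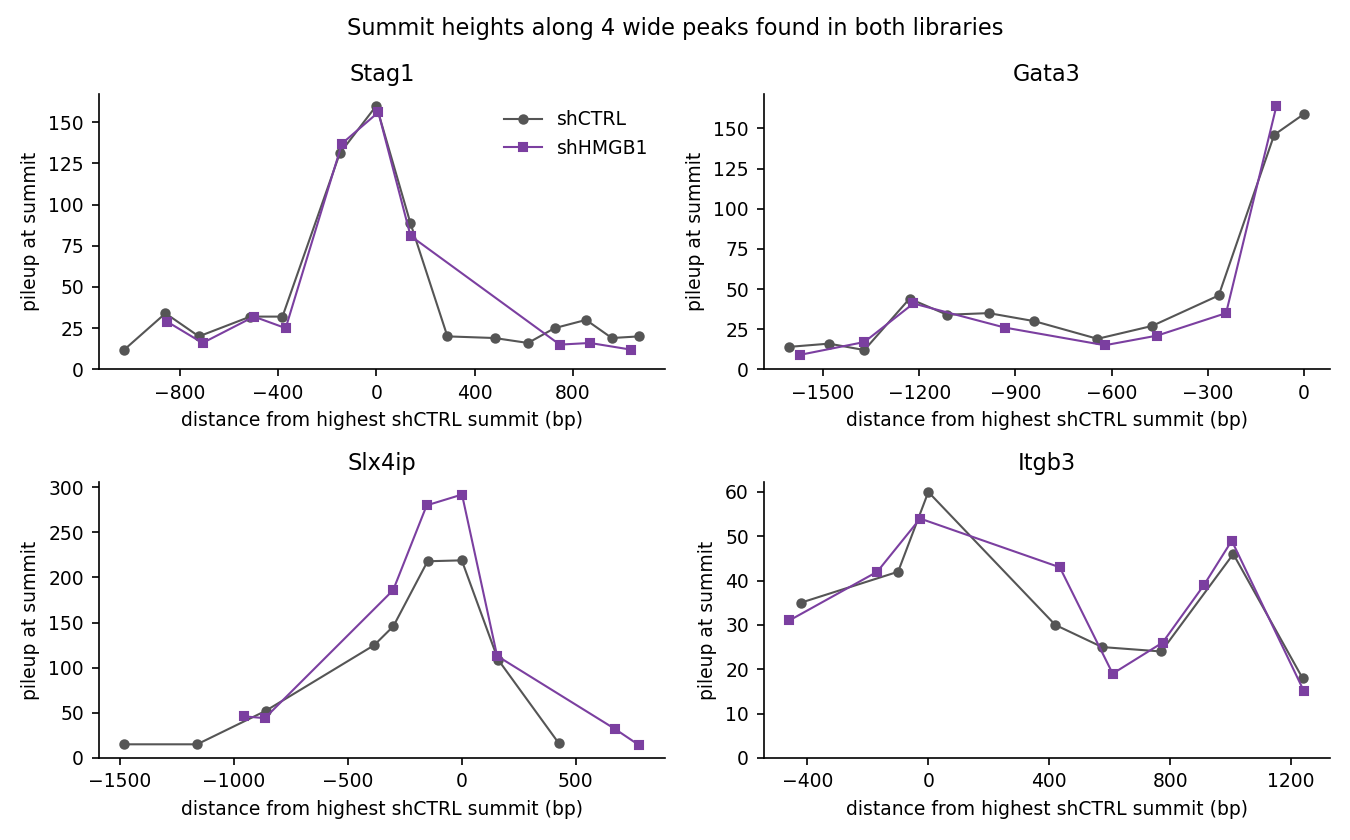
Points give the pileup of each called summit by its distance in bp from the highest shCTRL summit in wide peaks at Stag1, Gata3, Slx4ip and Itgb3, joined by lines for reading only. The high and low parts fall at like distances in both libraries; at Slx4ip the highest summit is 219 in shCTRL and 292 in shHMGB1.

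Other coding starts lay under a wide peak in one library only. In shCTRL these included Nfkb2, a subunit of NF-kappaB (pileup 59; the shHMGB1 peak was 1004 bp wide), Rassf1, a tumour suppressor of the RAS pathway (79; 1378 bp), Dnmt3a, a de novo DNA methyltransferase (29; 489 bp), Pdgfa, a growth factor for mesenchymal cells (36; 1320 bp), and Hoxa10, a patterning gene (19; 676 bp). In shHMGB1 they included Osbpl2, a lipid carrier (pileup 211; the shCTRL peak was 1443 bp wide), Rps6ka2, a kinase downstream of ERK (117; 1136 bp), Tpm3, a tropomyosin (92; 1450 bp), and S100a3 (91; 796 bp). These genes were chosen after their values were seen. Each of these wide peaks was overlapped, at least in part, by a peak of the other library that fell short of the width limit. Whether that peak reached the start itself is not given.

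None of the 5 highest wide peaks of either library held an annotated start. The highest in both libraries was chr15:75085466-75087110, 21050 bp from Ly6c2, a surface antigen of monocytes, with a pileup of 1268 in shCTRL and 746 in shHMGB1 and the same width of 1645 bp. Even its lowest summit reached 87 and 85. Inside Myo3a, a motor protein of hair cells, a wide peak of shHMGB1 (chr2:22587321-22590569) had a pileup of 719, and the nearest shCTRL summit 375. The 2 loci thus differed in opposite directions, with log2 ratios of −0.52 (−0.66 to −0.39) and 1.14 (0.96 to 1.32). At Zfp958, a zinc finger gene 44679 bp away, pileups were 239 and 271. Inside Slx4ip, which binds the nuclease scaffold SLX4, they were 219 and 292 (0.65, 0.40 to 0.91). Inside Arsj, a sulfatase, a wide peak of shHMGB1 had 335, and the matching shCTRL summit 309 (0.32, 0.09 to 0.55). Local cover was below 4% at the 5 loci named here. The peak near Scaf8 described below, also among the 5 highest of shCTRL, had 24.8%.

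A few wide peaks sat close to the left end of their chromosome's coordinates. Near Vmn1r2, a vomeronasal receptor 85445 bp away, chr4:3079351-3086637 had 7287 bp, 45 summits and a pileup of 106 in shCTRL, and chr4:3079351-3084817 had 5467 bp, 33 summits and a pileup of 50 in shHMGB1. Near Scaf8, an RNA-binding protein of transcription termination 80800 bp away, chr17:3028290-3034171 had 5882 bp, 36 summits and a pileup of 242 in shCTRL, and the shHMGB1 peak had 2546 bp and 154. Both were lower in shHMGB1, with log2 ratios of −0.83 (−1.34 to −0.33) and −0.41 (−0.71 to −0.11). How reads with several matches in the genome were treated is not given in the sources used here.

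Heights in the libraries were compared at the highest summit of each wide peak and the nearest summit of the other library within 150 bp, as the log2 ratio of deposited folds relative to the median of all matched summits. Of 293 wide peaks of shCTRL 272 had a match. The median ratio was −0.22, and 35 were at least 2-fold lower in shHMGB1 (12.9%; 1.53% of all matched peaks of shCTRL) and 0 at least 2-fold higher (0.87% of all). All 193 wide peaks of shHMGB1 had a match. Their median ratio was 0.19, and 3 were at least 2-fold higher in shHMGB1 (1.01% of all matched peaks of shHMGB1) and 0 at least 2-fold lower (1.5% of all). Each list was anchored on the highest summit of its own library, which favours that library, so the sign of each median is in part fixed by that choice. Of 272 matched wide peaks of shCTRL, 30 had a counting interval above the median ratio and 41 below it (4.95% and 1.72% of all matched peaks). In shHMGB1 the numbers were 41 and 6 of 193 (5.15% and 1.37%). Where the pileups of both libraries added up to at least 60, they were 30 and 10 of 171 in shCTRL, and 40 and 6 of 171 in shHMGB1. Counting intervals narrow as pileup rises, and for them no share of all peaks at the same height is given. Among wide peaks whose pileups in both libraries added up to at least 60, 1 of 171 of shCTRL was at least 2-fold lower in shHMGB1 (0.441% of all such peaks) and 0 of 171 of shHMGB1 (0.29%). Nearly all of the 35 were thus low peaks.

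The lower values in shCTRL's list lay in crowded stretches. There the median ratio was −0.81 over 82 matched wide peaks, with 28 at least 2-fold lower. In sparse stretches it was 0.06 over 144, with 1 at least 2-fold lower. In shHMGB1's list the medians were −0.16 over 15 crowded and 0.26 over 159 sparse wide peaks. Without centring on all matched summits, the crowded medians become −0.55 in shCTRL's list and 0.14 in shHMGB1's, the latter a change of sign. Outside crowded stretches the wide peaks of shCTRL had a median of −0.03 over 190 matched, with 7 at least 2-fold lower.

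**Figure D5:**
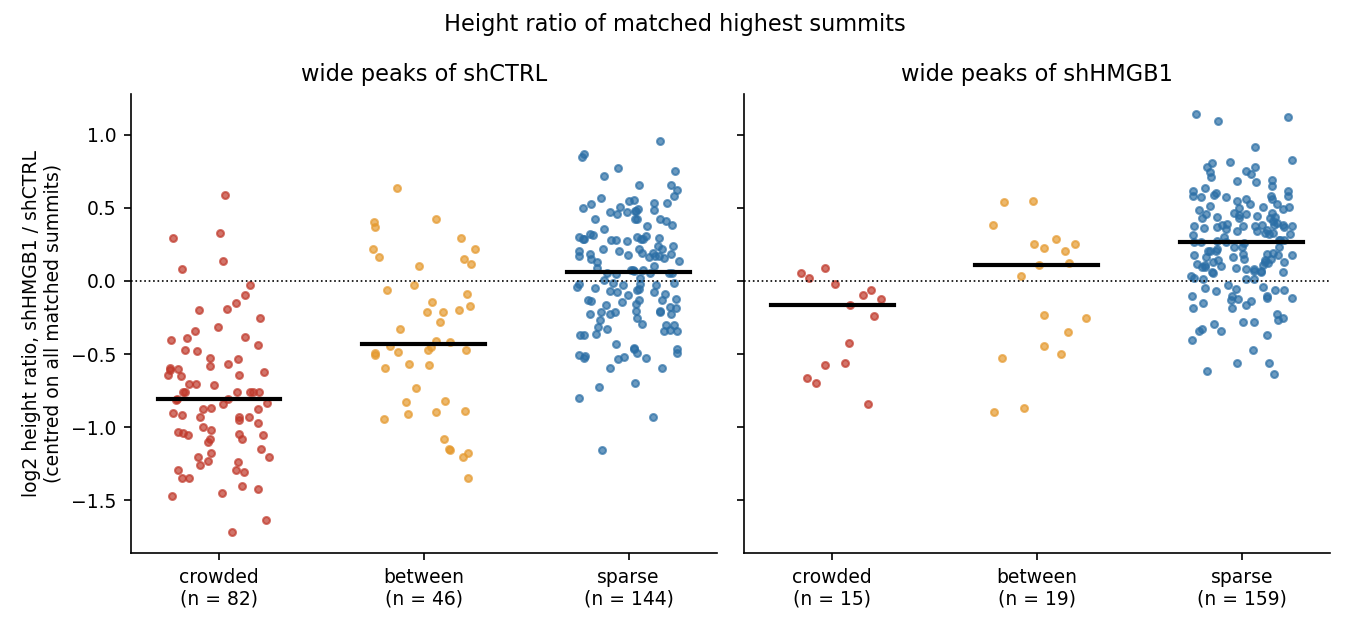
Points give the centred log2 ratio of shHMGB1 over shCTRL at the highest summit of each matched wide peak of shCTRL (left) and shHMGB1 (right), by local cover; black bars are medians and the dotted line is the median of all matched summits. The median stands at −0.81 in crowded wide peaks of shCTRL and at 0.06 in sparse ones.

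Among wide peaks with a combined pileup of at least 60, those with the largest ratios in favour of shHMGB1 lay inside or near genes of several kinds. Foxp1, a forkhead repressor, had 66 in shCTRL and 126 in shHMGB1 (1.12, 0.69 to 1.57) in a wide peak of shHMGB1. Akna, an AT-hook protein of the centrosome, had 58 and 96 (0.96, 0.48 to 1.45), Impact, a regulator of translation, 115 and 178 (0.87, 0.52 to 1.22), and Smyd3, a lysine methyltransferase, 118 and 180 (0.85, 0.50 to 1.19). A wide peak of shHMGB1 11410 bp from Fkbp1a, the binding protein of rapamycin, had 48 and 74 (0.82, 0.28 to 1.37). One 83380 bp from Snx5, a sorting nexin, had 80 and 116 (0.77, 0.35 to 1.20), and Sh3pxd2a, a scaffold of invasive protrusions, 63 and 90 (0.75, 0.27 to 1.23). In all 7 the pileup itself was higher in shHMGB1, although its expected pileup was lower. In the other direction, besides the peaks near Vmn1r2, Scaf8 and Mroh2a, Plec, a linker of the cytoskeleton, had 50 in shCTRL and 25 in shHMGB1 (−0.73, −1.47 to −0.02). These intervals cover counting error only.

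Most wide peaks lay inside a coding gene: 183 of 293 in shCTRL (62.5%, 56.6 to 68.0) and 131 of 193 in shHMGB1 (67.9%, 60.8 to 74.4). Of all peaks away from gene ends, 59.2% and 56.6% did so. Genes with the most wide peaks inside or nearest were Sdc3 with 16, Matn1 with 14, Laptm5 and Nphp4 with 9 each, and Kcnab2 with 8, all in shCTRL and all on chromosome 4. Other kinds of gene were also covered: a lncRNA by 52 wide peaks of shCTRL (17.7%; 12.2% of all peaks away from gene ends) and 38 of shHMGB1 (19.7%; 12.6%), and a tRNA gene by 5 in each library (1.71% and 2.59%; 0.15% and 0.17%).

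Among 16 lists of genes on adhesion, matrix, signalling, transcription and cell type, with 224 genes on chromosomes 1 to 19, 6 genes had a wide peak inside or nearest in shCTRL and 6 in shHMGB1. This is 2.68% in each library, and over all 20661 coding genes the share was 0.968% and 0.847%. Both libraries had a wide peak at Itgb3 (chr11:104624645-104626572, pileup 60 in shCTRL and 54 in shHMGB1), and near Cdh5, an endothelial cadherin 77804 bp away (138 and 155). shCTRL alone had one at Nfkb2 (59), near its inhibitor Nfkbia (71, 22202 bp away), at Pdgfa (36), and a pair inside Ephb2, a receptor of ephrins (21 each, both crowded). shHMGB1 alone had one inside Timp3, an inhibitor of matrix proteases (59), near Col1a2, a chain of type I collagen (30), inside Tgfbr3, a co-receptor for TGF-beta (33), and inside Bdnf, a neurotrophin (74). At each of these sites the other library had an overlapping peak below the width limit. In shHMGB1 its pileup was 54 at Nfkb2, 68 near Nfkbia, 21 at Pdgfa and 10 at both sites in Ephb2. In shCTRL it was 45 at Timp3, 16 near Col1a2, 59 at Tgfbr3 and 71 at Bdnf. No wide peak was assigned to any of the 10 genes for AP-1 factors, 16 genes of YAP, TEAD and their targets, 9 genes of EMT, 12 mesothelial markers, or the 7 genes of HMG proteins on these chromosomes. With at most 2 genes per list and library, no list can be set apart from another.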

How the data were processed

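ATAC-seq peaks of 1 shCTRL and 1 shHMGB1 library were used, with groups taken from the silencing label. Per the submitters' processing notes, Trimmomatic 0.32, BWA 0.7.5-r404, SAMtools, bedtools and MACS2 were used with mm10 (GRCm38); settings, read filters and any shift of reads for the transposase are not stated in the sources at hand. The authors deposited 1 list of narrow peaks per library, not pooled, in which a peak can have several summits. The deposited score is the whole part of 10 times the −log10 q, the deposited ratio is a fold, summit pileup over expected pileup, and the columns of −log10 p and −log10 q, also deposited, compare a summit with that expectation. The nucleosome-free regions were used by position, and their deposited columns were read from the layout as a fraction (nucleosome occupancy) and as signal (densities of insertions and of sequence bias).

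Rows with the same start and end were merged to 1 peak. Pileup was recovered as the fold times (expected pileup + 1), minus 1, with a single expected pileup per library; all values came out whole within 0.000254 (shCTRL) and 0.000153 (shHMGB1). A single expected pileup per library means that no local background entered the deposited fold. Gene positions came from RefSeq (GRCm38.p6), and annotated starts were taken from its promoter sequences, with 32851 starts of 27025 genes, so a gene without an entry has no start here. The sequence of the peaks themselves was not analysed here. Shares have exact Clopper-Pearson 95% intervals, and ratios of matched summits conditional binomial ones on pileup + 1. They describe counting error alone, because without molecular identifiers a fragment is no independent molecule, and total read depth is not given in the files. A share in other peaks of the same height was averaged over bins of pileup.

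The members, gene lists and comparisons were chosen with earlier results of these data known. Named regions were per library the 5 widest, those with the most summits, the 5 highest and the 5 per direction with the largest ratio among those with a combined pileup of at least 60, genes with the most wide peaks and up to 3 genes per list, without genes called Gm plus a number or with names that end in Rik; the genes with annotated starts, the microRNAs and the limits of local cover were chosen after their values were seen. The calculation was tested on simulated data. Python 3.11.15, pandas 2.3.3, numpy 2.4.6, scipy 1.17.1 and matplotlib 3.10.9 were used. Alternatives changed the width limit, the strength of the peaks, the overlap, the centring of ratios, the spacing of summits and the flanks.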

Additional observations from a re-analysis of the deposited data

How the results depend on the processing

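No paired analysis was possible because each line had 1 library. With a least width of 2000 bp the numbers of wide peaks were 115 in shCTRL and 45 in shHMGB1, and with 1000 bp 1139 and 1131. Keeping only peaks whose −log10 q reached 50 left 129 in shCTRL and 132 in shHMGB1, against 293 and 193. That limit weighs a summit against the expected pileup of its own library, so it need not be the same pileup in both. Under it the shares that were crowded fell to 3.10% and 0.0%. At 2000 bp those shares were 50.4% and 20.0%, at 1000 bp 16.5% and 3.36%, with flanks of 200 kb 25.9% and 1.04%, and with crowded set from 20% it was 39.9% in shCTRL. The share of shCTRL wide peaks that overlapped a wide shHMGB1 peak was 21.7% at 2000 bp, 58.2% at 1000 bp, 54.3% at the stricter q and 50.8% outside crowded stretches. When a peak had to cover 50 percent of the interval, overlap with any peak was 58.7% in shCTRL and 91.2% in shHMGB1. A nucleosome-free region was held by 37.4% of shCTRL wide peaks at 2000 bp, 72.9% at the stricter q and 67.7% outside crowded stretches, and in shHMGB1 by 63.8% at 1000 bp and 84.8% at the stricter q. Annotated starts lay in 15.7%, 30.2% and 28.7% of shCTRL wide peaks at 2000 bp, the stricter q and outside crowded stretches, and 68.2% lay inside a gene at the stricter q. Median summits per wide peak were 9 and 8 when summits had to be 100 bp apart.

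The median log2 ratio of shCTRL wide peaks, −0.22, was −0.51 at 2000 bp, −0.0073 at 1000 bp, −0.026 outside crowded stretches and −0.36 within bins of height, and it changed sign to 0.14 at the stricter q and to 0.043 without centring; the cause was not tested, except that centring subtracts a median of 0.26. For shHMGB1 wide peaks, 0.19, it was 0.11 at 2000 bp, 0.28 at the stricter q, 0.49 without centring, 0.0073 within bins of height and 0.12 with the highest summit of each library. In crowded stretches it was −0.55 without centring and −0.66 with the highest summit of each library for shCTRL, and 0.14 and −0.57 for shHMGB1, whose main value was −0.16. The alternatives outside crowded stretches, on the flanks, on crowded from 20% and on the highest summit of each library were chosen after seeing the data. Another 83 values moved less than their interval or, for counts without one, less than 1.5 times. Lower call limits in shHMGB1, 7 against 10, and the unknown depth limit any comparison of widths and numbers.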
